A study of Mus musculus with 30 samples.

Results

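The genes described are 10 genes of melanin synthesis and of the melanosome, followed through the retinal pigment epithelium (RPE) of *Mertk* knockout mice: *Tyr*, *Tyrp1*, *Dct*, *Pmel*, *Mlana*, *Oca2*, *Slc45a2*, *Slc24a5*, *Mitf* and *Gpr143*. They were taken by symbol from the table of the RPE, where each symbol named 1 gene, so that 10 of 55573 genes are covered. RPE was taken directly from mice at postnatal day 25 (P25) and its polyA RNA was sequenced in 18 libraries, 6 each of B6 WT and *Mertk*-/-V1 and 3 each of *Mertk*-/-V2 and *Mertk*-/-V3, all labelled as strain C57BL/6J and as biological replicates. Bone marrow-derived macrophages (BMDMs), cells that make no melanin, were sequenced in 3 libraries of each genotype and serve as background. *Mertk*-/-V1 is the older knockout, made in embryonic stem cells of the 129P2 strain and backcrossed to B6: it lacks an exon of the kinase domain, carries a neomycin cassette and keeps a stretch of 129P2 chromosome 2 around *Mertk*. The other lines were made on B6: *Mertk*-/-V2 lost a different exon of the kinase domain through a floxed allele, and *Mertk*-/-V3 lost a pair of early exons through CRISPR/Cas9. Part of the genome of both is of the C57BL/6NJ substrain, a larger part in *Mertk*-/-V3. RPE cells were shaken off the posterior eyecup into an RNA preservative, a step that does not sort cells by type.

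Melanin is made in melanosomes, organelles related to lysosomes. Fibrils of PMEL form a scaffold, enzymes of the tyrosinase family make pigment from tyrosine on it, and transporters in the membrane set the pH and the ions that these enzymes need. The RPE arises from the optic neuroepithelium and makes most of its melanosomes before and around birth, whereas the melanocytes of the choroid come from the neural crest. In both cell types MITF, a basic helix-loop-helix factor, activates the genes of the pigment enzymes through E-boxes, short elements of 6 letters. Mutations in *Tyr*, *Oca2*, *Tyrp1* and *Slc45a2* cause oculocutaneous albinism, and loss of *Gpr143* causes ocular albinism.

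The stretch before the start site is shown for the members that hold the E-box of pigment genes. The choice of members did not use sequence, but this E-box is known from such genes, so finding it in them is not independent support. RefSeq promoters of the GRCm38.p6 build were at hand for 6 of the 10 members (*Tyr*, *Tyrp1*, *Dct*, *Oca2*, *Slc24a5* and *Mitf*), and the 250 bases before each start were searched on both strands. The E-box CATGTG lay in 5 of these 6 members, beside 12.3% of all 32851 promoters of that length. With a T before it (TCATGTG, part of the M-box) it lay in 4 of the 6 and in 3.25% of all promoters. With a C after that as well (TCATGTGC) it lay in 3 of the 6 and in 0.764% of all promoters. The extensions contain the shorter motif, so these are not separate matches. The element began 21 bases before the start in *Tyr*, 46 in *Tyrp1*, 186 in *Oca2* and 13 in *Slc24a5*, and *Dct* held it at 150 and at 232 bases. These starts are those of RefSeq. In GENCODE *Tyrp1* starts at chr4:80834123, within the window searched, so its element lies inside the gene as annotated there. The other E-box, CACGTG, was found in none of the 6 members and in 6.02% of all promoters. The motif of OTX factors, GGATTA, was found in *Dct* and in 1 of 3 *Mitf* promoters, and in 6.25% of all promoters. A match of letters is a description and not a binding site. The 5 sequences run 5′ to 3′ on the strand of the gene and capitals mark the E-box or its reverse complement, with the added letters where they are there: *Tyr* at chr7:87493513-87493762 (minus strand), *Tyrp1* at chr4:80833963-80834212 (plus), *Dct* at chr14:118052247-118052496 (minus), *Oca2* at chr7:56239509-56239758 (plus) and *Slc24a5* at chr2:125067877-125068126 (plus).
Tyr: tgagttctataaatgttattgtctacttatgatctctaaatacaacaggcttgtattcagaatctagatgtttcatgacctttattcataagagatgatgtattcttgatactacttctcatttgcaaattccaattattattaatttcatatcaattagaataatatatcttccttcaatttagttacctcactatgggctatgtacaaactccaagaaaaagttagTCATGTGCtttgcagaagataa
Tyrp1: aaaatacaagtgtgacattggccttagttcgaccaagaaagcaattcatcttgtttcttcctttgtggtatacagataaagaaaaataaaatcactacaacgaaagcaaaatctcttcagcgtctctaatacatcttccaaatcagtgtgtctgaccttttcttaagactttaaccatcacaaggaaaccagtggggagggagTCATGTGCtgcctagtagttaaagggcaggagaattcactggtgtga
Dct: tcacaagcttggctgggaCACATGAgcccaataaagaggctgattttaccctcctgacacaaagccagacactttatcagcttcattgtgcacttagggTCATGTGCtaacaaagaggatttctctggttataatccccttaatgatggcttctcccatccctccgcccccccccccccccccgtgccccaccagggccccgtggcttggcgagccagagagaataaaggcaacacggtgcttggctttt
Oca2: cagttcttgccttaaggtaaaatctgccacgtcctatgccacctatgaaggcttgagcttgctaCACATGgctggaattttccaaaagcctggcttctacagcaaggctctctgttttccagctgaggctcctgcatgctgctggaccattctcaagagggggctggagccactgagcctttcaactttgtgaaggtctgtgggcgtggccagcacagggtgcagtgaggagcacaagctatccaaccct
Slc24a5: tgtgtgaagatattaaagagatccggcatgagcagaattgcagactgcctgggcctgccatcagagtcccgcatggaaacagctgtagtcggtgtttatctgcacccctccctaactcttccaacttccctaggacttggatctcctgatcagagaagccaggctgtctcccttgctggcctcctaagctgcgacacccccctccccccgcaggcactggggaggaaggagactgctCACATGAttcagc

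Values are normalized counts, that is the reads of a gene divided by one DESeq2 size factor per library, unless another scale is named. The RPE libraries held 14137666 to 34124049 reads on genes and the BMDM libraries 16629659 to 25653814. *Mertk* itself was at 2638 to 3924 normalized counts in B6 WT RPE, 919 to 1717 in *Mertk*-/-V1 and 444 to 1106 in *Mertk*-/-V3, and at 3565 to 5311 in *Mertk*-/-V2, whose lesion removes an exon without lowering the count over the gene. Of 10 RPE markers 9 were at 2036 or more in every RPE library (*Rpe65* at 13235 to 105278), whereas *Best1*, a chloride channel of the RPE, was at 18.5 to 52.9. Transcripts of 12 rod photoreceptor genes, which the RPE does not make, summed to 34614 to 909473 normalized counts and were highest in *Mertk*-/-V1 replicates 5 and 6 (909473 and 556947) and *Mertk*-/-V3 replicate 1 (433551). The summed RPE markers were lowest in the same 3 libraries, at 248732, 194659 and 281841 against 432043 to 881269 in the other 15. Results are therefore given with and without these 3 libraries. The 8 markers of choroidal melanocytes summed to 4843 to 11360 in RPE. Of these, *Sox10* (876 to 3702), *Kit* (997 to 3196), *Erbb3* (545 to 3741), *Ednrb* (827 to 2328), *Tfap2a* (211 to 1012) and *Mcam* (130 to 368) were well detected, and *Mc1r* (10.3 to 59.5) and *Foxd3* (1.12 to 10.5) were near 0. Transcripts of melanocytes were thus not absent, and their part in the members' levels was not tested. In bulk RNA, fewer cells of a type and less RNA per cell cannot be told apart.

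In B6 WT RPE the 10 genes spanned 54.8-fold in level per length. On the scale of reads per kb of exon, scaled to the reads on genes of the library (RPKM), *Dct* came highest (618 ± 92.4, SD, n = 6), followed by *Pmel* (474 ± 138) and *Tyrp1* (360 ± 76.8), then *Mlana* (152 ± 30.9), *Tyr* (67.5 ± 3.82), *Oca2* (44.4 ± 2.75), *Slc24a5* (36.5 ± 2.17), *Gpr143* (23.5 ± 2.36), *Mitf* (15.1 ± 1.08) and *Slc45a2* (11.3 ± 0.928). The ranges of neighbours in this order were separate except for the 3 most abundant: *Dct* was above *Pmel* in 5 of 6 libraries and the ranges overlapped, as did those of *Pmel* and *Tyrp1*, although *Pmel* was the higher in 6 of 6. The enzyme that starts the pathway, tyrosinase, was thus far less abundant as a transcript than its relatives *Dct* and *Tyrp1*. Together the 10 genes took 0.396 to 0.958% of the reads on genes in RPE (median 0.708%) and 0.00545 to 0.00700% in BMDMs.

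**Figure D1:**
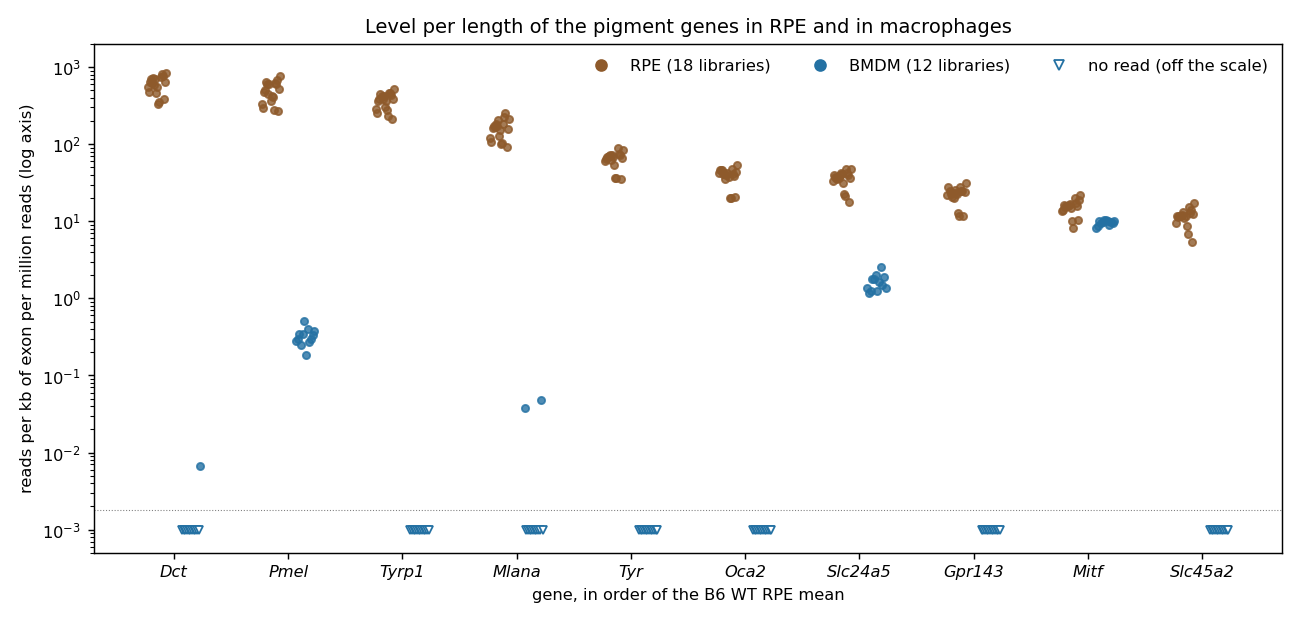
Reads per kb of exon, scaled to the reads on genes of the library (RPKM, log axis) for the 10 pigment genes, in order of the B6 WT RPE mean; each point is 1 library, 18 of RPE and 12 of BMDMs, and open triangles below the dotted line are libraries without a read. *Mitf* is the only gene of the 10 for which the BMDM points (8.18 to 10.4) reach the range of the RPE points, and 5 genes have no read in any BMDM library.

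*Tyr* (ENSMUSG00000004651, chr7:87424771-87493512, minus strand, GRCm38) encodes tyrosinase, the rate-limiting enzyme of melanin synthesis. Its normalized counts ran from 11916 to 12875 in B6 WT (median 12569, n = 6) and from 5930 to 13668 in *Mertk*-/-V1 (median 10642, n = 6). The 3 *Mertk*-/-V2 libraries read 17033, 13274 and 13317, and the 3 *Mertk*-/-V3 libraries 6122, 11245 and 15149. B6 WT was tight (coefficient of variation 3.09%), the *Mertk*-/-V1 and *Mertk*-/-V3 libraries were spread on both sides of it (33.0% and 41.8%), and every *Mertk*-/-V2 library was above every B6 WT library.

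*Dct* (ENSMUSG00000022129, chr14:118012790-118052244, minus strand), dopachrome tautomerase, converts dopachrome to the carboxylated precursor of eumelanin. It read 78180 to 109058 normalized counts in B6 WT (median 95498) and 47147 to 109925 in *Mertk*-/-V1 (median 76405). The *Mertk*-/-V2 libraries, at 117464, 120875 and 118686, varied by only 1.45% and lay above all B6 WT libraries, whereas *Mertk*-/-V3 covered 55151, 91432 and 126160. *Tyrp1* (ENSMUSG00000005994, chr4:80834123-80851719, plus strand), the other relative of tyrosinase, read 19814 to 30388 in B6 WT, 15127 to 31636 in *Mertk*-/-V1, 32119 to 34446 in *Mertk*-/-V2 and 14411 to 36937 in *Mertk*-/-V3, the same arrangement of the genotypes as *Dct*.

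*Pmel* (ENSMUSG00000025359, chr10:128704195-128720238, plus strand), the fibril protein of the melanosome, read 18383 to 34904 in B6 WT (median 29584) and 14357 to 36954 in *Mertk*-/-V1 (median 23542). The *Mertk*-/-V2 libraries were at 38698, 34984 and 40283 and those of *Mertk*-/-V3 at 14847, 28313 and 44860. With a coefficient of variation of 23.6% it was the member most variable within B6 WT, and the *Mertk*-/-V2 libraries were just clear of it. *Mlana* (ENSMUSG00000024806, chr19:29697824-29708634, plus strand), a membrane protein that assists the maturation of PMEL, was at 3064 to 4753 in B6 WT, 2496 to 5829 in *Mertk*-/-V1, 5162 to 6957 in *Mertk*-/-V2 and 2349 to 5687 in *Mertk*-/-V3. The ends of *Pmel* overlap *Cdk2* and *Dgka* and *Dct* overlaps 4930435M08Rik, all on the opposite strand, and whether the counting used strand is not given in the sources used here.

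*Oca2* (ENSMUSG00000030450, chr7:56239760-56536518, plus strand) encodes an anion channel that raises the pH of the melanosome. It read 3848 to 5107 in B6 WT (median 4785) and 1788 to 4466 in *Mertk*-/-V1 (median 3642). The *Mertk*-/-V2 libraries were at 5106, 4103 and 3968 and the *Mertk*-/-V3 libraries at 1969, 4079 and 5495. Unlike the enzymes, *Oca2* in *Mertk*-/-V2 lay within the B6 WT range. *Slc45a2* (ENSMUSG00000022243, chr15:11000721-11029233, plus strand), a transporter that also acts on melanosomal pH, was at 794 to 959 in B6 WT, 468 to 1032 in *Mertk*-/-V1, 967 to 1217 in *Mertk*-/-V2 and 385 to 1297 in *Mertk*-/-V3.

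*Slc24a5* (ENSMUSG00000035183, chr2:125068124-125088677, plus strand), a potassium-dependent sodium and calcium exchanger, is the only member on chromosome 2, on the side of *Mertk* (chr2:128698956-128802894) where the study places other genes of the 129P2 stretch. It read 1997 to 2544 in B6 WT (median 2191) and 1130 to 2643 in *Mertk*-/-V1 (median 2122), 2966, 2443 and 2427 in *Mertk*-/-V2 and 989, 2054 and 2861 in *Mertk*-/-V3. B6 WT lay inside the range of *Mertk*-/-V1, which had libraries on both sides. The nearest genes tested on either side, *Sema6d* and *Slc12a1*, did not pass the test in *Mertk*-/-V1 RPE (limma, log2 fold change -0.20, adjusted p = 0.851, and -0.03, adjusted p = 0.986).

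*Gpr143* (ENSMUSG00000025333, chrX:152781921-152808646, plus strand), a G protein-coupled receptor of the melanosome membrane that limits organelle size, was at 997 to 1511 in B6 WT, 536 to 1368 in *Mertk*-/-V1, 1251 to 1465 in *Mertk*-/-V2 and 556 to 1604 in *Mertk*-/-V3. *Mitf* (ENSMUSG00000035158, chr6:97807052-98021349, plus strand), the transcription factor of the set, read 2331 to 2683 in B6 WT (median 2388), 1142 to 2767 in *Mertk*-/-V1 (median 2414), 3320, 2674 and 2570 in *Mertk*-/-V2 and 1553, 2796 and 3447 in *Mertk*-/-V3. Its medians in B6 WT and *Mertk*-/-V1 were almost equal, and the low mean of *Mertk*-/-V1 (2161 ± 673) came from replicates 5 and 6.

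**Figure D2:**
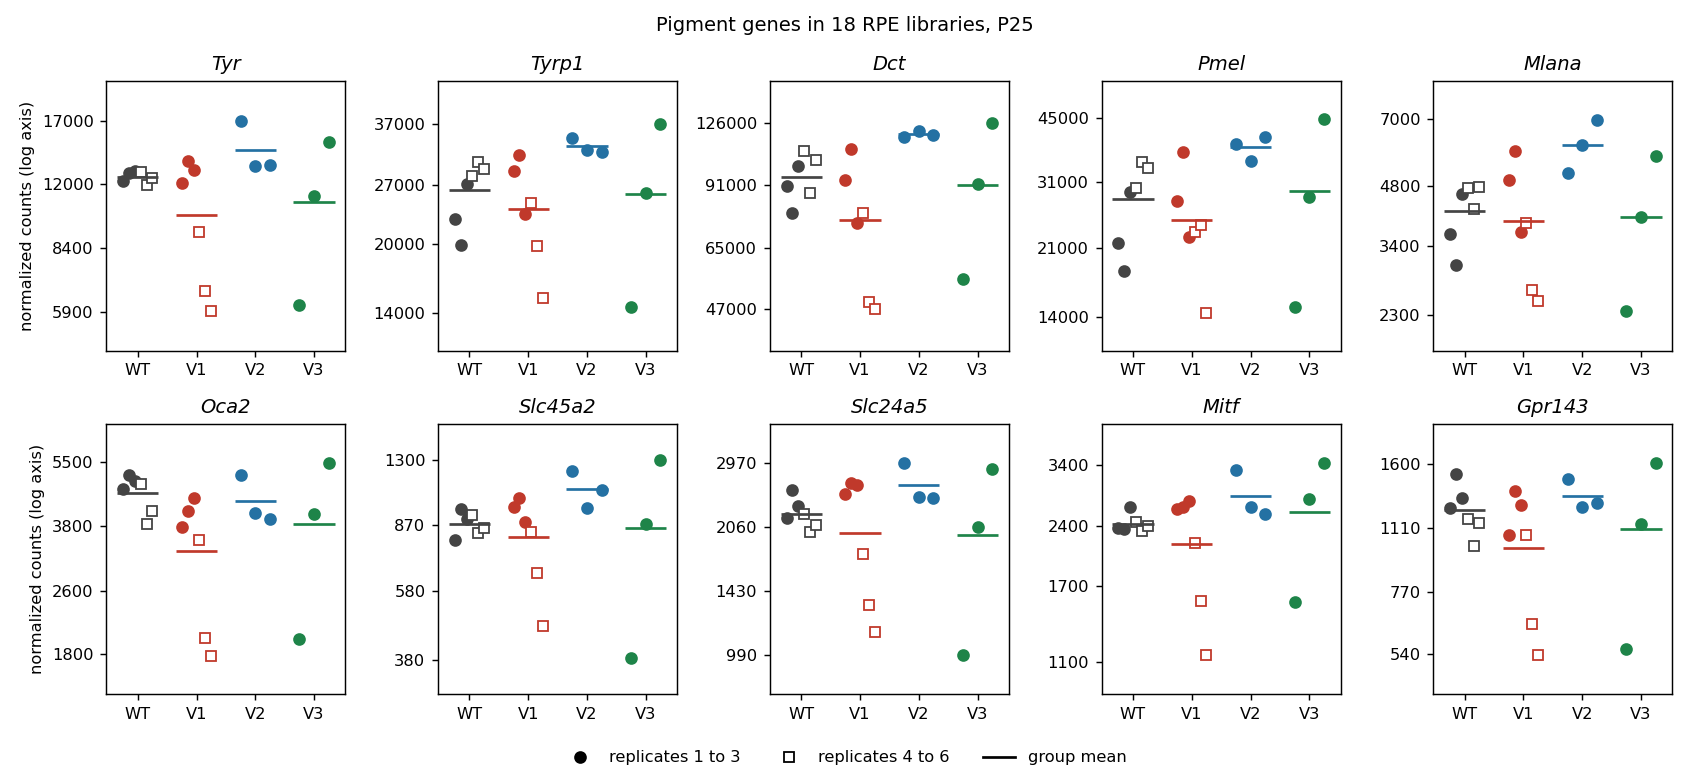
Normalized counts (log axes) of each pigment gene in the 18 RPE libraries, by genotype; filled circles are replicates 1 to 3, open squares replicates 4 to 6 (only in B6 WT and *Mertk*-/-V1) and bars group means. The lowest points belong to *Mertk*-/-V1 replicates 5 and 6 and to 1 *Mertk*-/-V3 library, and the *Mertk*-/-V2 points of *Dct* sit at 117464 to 120875 above all B6 WT points.

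The comparison with B6 WT asks whether loss of *Mertk*, or the 129P2 stretch, goes with a change in the pigment program. None of the 10 genes changed in *Mertk*-/-V1 RPE. The test was limma on log2 of the normalized counts plus 1, and a gene counted as changed when its adjusted p was under 0.05 and its level 2.38-fold higher or lower, the thresholds of the study. By that rule 0.149% of 18832 genes were called (28 genes). By adjusted p alone it was 0.388% (73 genes, and 131 with the replicate number as a block), and 1283 genes were under 0.05 before adjustment. All 10 log2 fold changes were negative, with a median of -0.24 beside 0.02 over all genes, of which 46.2% were negative. The largest was that of *Oca2*, -0.57 (95% confidence interval -1.10 to -0.04, limma, unadjusted p = 0.0368, adjusted p = 0.690), the only member under 0.05 without adjustment. edgeR and DESeq2 on the recovered reads called none of the 10 either, and had none under 0.05 without adjustment. In limma *Dct* followed at -0.39 (-0.89 to 0.10, adjusted p = 0.797) and *Tyr* at -0.38 (-0.85 to 0.09, adjusted p = 0.788), and *Mlana* was closest to 0 at -0.14 (-0.61 to 0.34). The intervals reach -1.10 at most, so the data do not separate no difference from a moderate decrease. Without the 3 libraries richest in rod transcripts, 5 members were above and 5 below B6 WT, with a median of 0.02. With the mean level of the RPE markers as a covariate all 10 fold changes turned positive (median 0.21), and *Slc24a5* then had 0.37 (limma, adjusted p = 0.0445). With the rod genes as a covariate instead, all 10 stayed negative (median -0.17, limma, smallest adjusted p = 0.110), so the direction depended on the covariate. Macrophage markers stood higher in *Mertk*-/-V1 (7 of 8, median 0.76), with *Fcgr1*, *C1qb* and *C1qa* passing by adjusted p. They also stood higher in *Mertk*-/-V2 (8 of 8, median 0.61) and, less evenly, in *Mertk*-/-V3 (5 of 8, median 0.36), with 0 passing there. The part of macrophage markers in the members' values was not tested.

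In *Mertk*-/-V2 RPE 9 of 10 members were above B6 WT, and none of the 10 changed (0.0584% of genes called, 0.069% by adjusted p alone). The median log2 fold change was 0.27 beside 0.02 over all genes, and 0 members were under 0.05 before adjustment by limma, edgeR or DESeq2. *Mlana* had 0.55 (-0.03 to 1.13, limma, adjusted p = 0.926), *Pmel* 0.48 (-0.18 to 1.14), *Tyrp1* 0.34 (-0.21 to 0.89) and *Dct* 0.34 (-0.27 to 0.94), and *Oca2* was the exception at -0.07 (-0.72 to 0.58). For 6 members (*Tyr*, *Tyrp1*, *Dct*, *Pmel*, *Mlana* and *Slc45a2*) every *Mertk*-/-V2 library was above every B6 WT library, an arrangement seen in 3.72% of the genes tested. The adjusted p stayed at 0.377 or above for these genes without the 3 libraries rich in rod transcripts (limma). That choice was made after the data had been seen. In that fit 4 members were under 0.05 before adjustment, beside 1780 of 18665 genes in either direction. With only B6 WT and *Mertk*-/-V2 in the fit 7 members were, beside 1566 of 18559 genes, and the members' smallest adjusted p was 0.445 (limma). With the rod genes as a covariate all 10 members were above B6 WT (median 0.36, limma, smallest adjusted p = 0.266). With the RPE markers as a covariate 9 were (median 0.21, limma, smallest adjusted p = 0.432). The *Mertk*-/-V2 libraries are all replicates 1 to 3, and against B6 WT replicates 1 to 3 alone 8 of 10 members were higher (median 0.25).

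In *Mertk*-/-V3 RPE 9 of 10 members were below B6 WT, by a median of -0.17 (8 of 10 and -0.05 with edgeR), and none changed (0.0637% of genes called, 0.069% by adjusted p alone). *Oca2* had the largest difference, -0.37 (-1.02 to 0.27, limma, adjusted p = 0.594), and *Mitf* was level at 0.02 (-0.53 to 0.57). Here too 0 members were under 0.05 before adjustment by limma, edgeR or DESeq2. This direction rested on 1 library: without *Mertk*-/-V3 replicate 1 all 10 members were above B6 WT, with a median of 0.20, and without replicate 3 all 10 were below it, with a median of -0.51. With all 3 libraries rich in rod transcripts left out the median was again 0.20, with *Mitf* at 0.35 (limma, unadjusted p = 0.00845, adjusted p = 0.154). The *Mertk*-/-V3 group thus held both the library with the most members at their highest value (replicate 3, 7 of 10) and one of the lowest (replicate 1, 4 of 10 at their lowest).

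A further comparison set *Mertk*-/-V1, the 129P2-derived line, against the B6-derived knockouts, taken as the average of their group means. All 10 members were lower in *Mertk*-/-V1, by a median of -0.34, and none changed (0.0956% of genes called, 0.207% by adjusted p alone). The B6-derived knockouts have replicates 1 to 3 only, whereas *Mertk*-/-V1 also has replicates 4 to 6. In *Mertk*-/-V1 alone the members were lower in replicates 4 to 6, by a median of -0.74 (limma). Set and genotype are thus partly mixed in this comparison, and their parts were not tested. *Dct* came closest, at -0.49 (-0.99 to 0.00, limma, unadjusted p = 0.0509, adjusted p = 0.525). *Pmel* had -0.42 (-0.96 to 0.12) and *Slc24a5* the smallest difference, -0.20 (-0.71 to 0.31). Without the 3 libraries rich in rod transcripts the 10 stayed lower (median -0.21, limma, smallest adjusted p = 0.196). With the RPE markers as a covariate the direction was lost, with 6 members higher, 4 lower and a median of 0.04. With the rod genes as a covariate all 10 stayed lower, by a median of -0.35. Of these, 5 were under 0.05 before adjustment (limma, smallest adjusted p = 0.133), beside 1541 of 18832 genes that were lower by the same rule. Single libraries also moved the median, to -0.52 without *Mertk*-/-V3 replicate 1 and to -0.19 without either *Mertk*-/-V1 replicate 6 or *Mertk*-/-V3 replicate 3. In the first of these fits 9 members were under 0.05 before adjustment (limma, smallest adjusted p = 0.150), beside 1707 of 18788 genes lower by that rule. In the other fits 0 members were. The comparisons with B6 WT share their control libraries, and this one shares its knockout libraries with them, so they are not separate evidence.

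**Figure D3:**
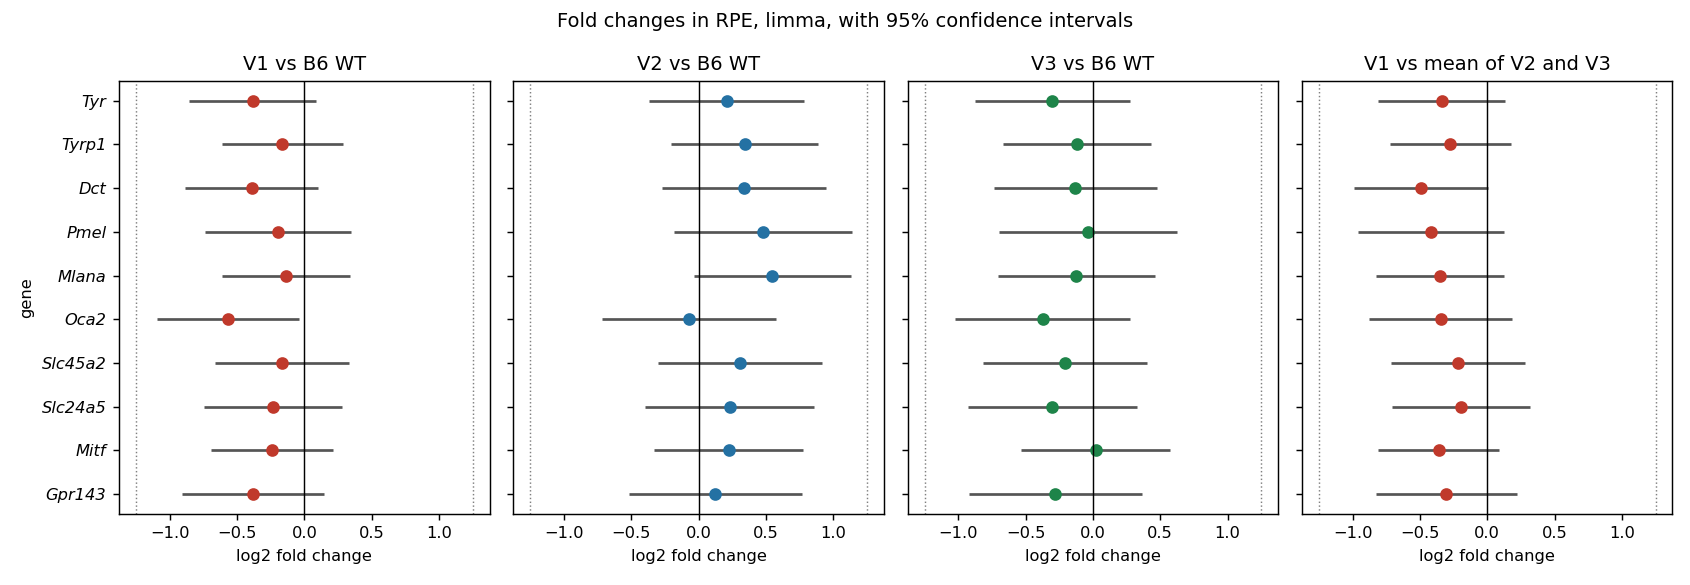
log2 fold changes (points) with 95% confidence intervals (bars) from limma for the 10 pigment genes in the 4 RPE comparisons; dotted lines mark 2.38-fold in either direction. All intervals cross 0 except that of *Oca2* in *Mertk*-/-V1 against B6 WT (-1.10 to -0.04), and no point passes a dotted line.

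Replicates 4 to 6 exist only in B6 WT and *Mertk*-/-V1, and the 2 sets of replicates differed in many genes: 9.32% of 18795 genes were called between replicates 4 to 6 and 1 to 3 of these genotypes, with genotype as a term. None of the 10 members passed both thresholds. By adjusted p alone 4 members were lower in replicates 4 to 6: *Slc24a5* (-0.53, limma, adjusted p = 0.0143), *Gpr143* (-0.54, 0.0208), *Oca2* (-0.52, 0.0288) and *Tyr* (-0.44, 0.0402). That is 4 of 10 where 21.8% of all genes were lower by the same rule. *Pmel* (0.01, limma, adjusted p = 0.974) and *Tyrp1* (-0.08, adjusted p = 0.741) were level between the sets. All 12 rod genes rose (median 2.06) and 9 of 10 RPE markers were lower by adjusted p (median -0.68), and the part of either in the members' difference was not tested. Without the 3 libraries rich in rod transcripts *Slc24a5* alone kept an adjusted p under 0.05 (-0.29, 0.0394). Leaving out any one of B6 WT replicate 5 and *Mertk*-/-V1 replicates 1, 2, 3, 5 and 6 raised the adjusted p of *Tyr* (to 0.0540 to 0.0901) and of *Oca2* (to 0.0539 to 0.0663) above 0.05. *Mitf* (-0.41, limma, adjusted p = 0.0598) came under it without B6 WT replicate 4 (0.0468) or *Mertk*-/-V1 replicate 4 (0.0344). *Slc24a5* and *Gpr143* stayed under it in each of these 12 fits.

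The same sets can be read in each genotype. In B6 WT alone *Tyr* was at 12222, 12728 and 12875 in replicates 1 to 3 and at 12856, 11916 and 12411 in replicates 4 to 6. In *Mertk*-/-V1 it was at 12082, 13668 and 12971 and then at 9202, 6616 and 5930, with no overlap between the sets. *Pmel* was higher in replicates 4 to 6 of B6 WT (21686, 18383 and 29252 against 29916, 34904 and 33622) and not in those of *Mertk*-/-V1 (27658, 36954 and 22387 against 23042, 24042 and 14357). The difference between the genotypes in the effect of the set was negative for all 10 members, from -1.04 (*Pmel*, 95% confidence interval -1.82 to -0.26, limma, unadjusted p = 0.0135) to -0.48 (*Gpr143*, -1.14 to 0.18), and 8 members were under 0.05 before adjustment, beside 4.27% of all genes in that direction. After adjustment none passed (smallest adjusted p of the members 0.720), nor did any other gene of the 18795, although 1249 were under 0.05 before it. Without *Mertk*-/-V1 replicates 5 and 6, which leaves replicate 4 alone in its set, 9 of 10 differences were negative, with a median of -0.39 in place of -0.79, and 3 members (*Tyr*, *Slc24a5* and *Pmel*) were under 0.05 before adjustment (limma, smallest adjusted p = 0.816).

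**Figure D4:**
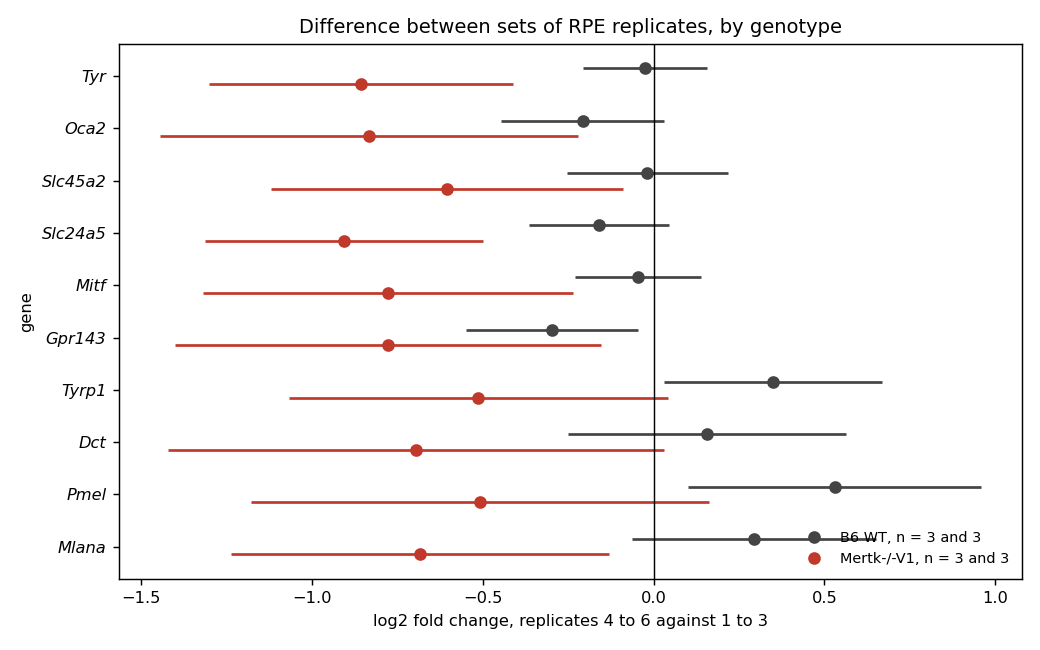
log2 fold change between RPE replicates 4 to 6 and 1 to 3 (points, with 95% confidence intervals from limma) for each pigment gene, fitted in B6 WT alone and in *Mertk*-/-V1 alone. The *Mertk*-/-V1 points lie left of 0 for all 10 genes, from -0.51 to -0.91, and the B6 WT points between -0.30 and 0.53.

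Read within the sets, *Mertk*-/-V1 and B6 WT gave different pictures. Among replicates 1 to 3, 8 of 10 members were higher in *Mertk*-/-V1, with a median of 0.13. Among replicates 4 to 6, all 10 were lower, with a median of -0.62, and 9 were under 0.05 before adjustment (5.14% of all genes, limma, smallest adjusted p = 0.557). Of the 3 *Mertk*-/-V1 libraries of that set, replicates 5 and 6 are those with the most rod transcripts and the fewest RPE transcripts (RPE marker sums of 248732 and 194659, against 489417 to 658449 in B6 WT replicates 4 to 6). With replicate 4 as the only *Mertk*-/-V1 library, assumed to vary like B6 WT, all 10 members were still lower but the median was -0.25, and *Tyr* alone was under 0.05 before adjustment (-0.43, limma, adjusted p = 0.926). For 8 members every *Mertk*-/-V1 library of replicates 4 to 6 was below every B6 WT library of that set, which held for 8.36% of genes. *Oca2* was the single member with this arrangement in replicates 1 to 3 too: B6 WT was at 4723, 5107 and 4940 and *Mertk*-/-V1 at 3774, 4157 and 4466, and then B6 WT at 4847, 3848 and 4147 and *Mertk*-/-V1 at 3509, 1979 and 1788. In replicates 1 to 3 that arrangement held for 7.18% of genes, and the *Oca2* difference there was -0.26 (-0.44 to -0.07, limma, unadjusted p = 0.0143, adjusted p = 0.425). RPE markers were also lower in *Mertk*-/-V1 over all replicates (9 of 10, median -0.63, none passing the test), and their part in the *Oca2* value was not tested. With the markers as a covariate *Oca2* was at 0.06 (-0.09 to 0.21). *Oca2* and the marker mean correlated at 0.978 over the 18 libraries, so that fit is not a test of their part.

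The members moved together from library to library. The 3 lowest libraries of every member were *Mertk*-/-V1 replicate 6, *Mertk*-/-V3 replicate 1 and *Mertk*-/-V1 replicate 5, except for *Pmel*, for which B6 WT replicate 2 took the place of the last. The median log2 difference of the 10 members from the B6 WT mean was -0.98, -0.95 and -0.70 in these 3 libraries and -0.22 to 0.44 in the other 15. These are also the 3 libraries with the most rod transcripts and the fewest RPE transcripts. *Mertk*-/-V3 replicate 3, at 0.44, had few rod transcripts (59366 summed normalized counts), but *Mertk*-/-V2 replicate 1, at 0.41, had 202156, and the RPE markers were high in both (764034 and 829534).

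**Figure D5:**
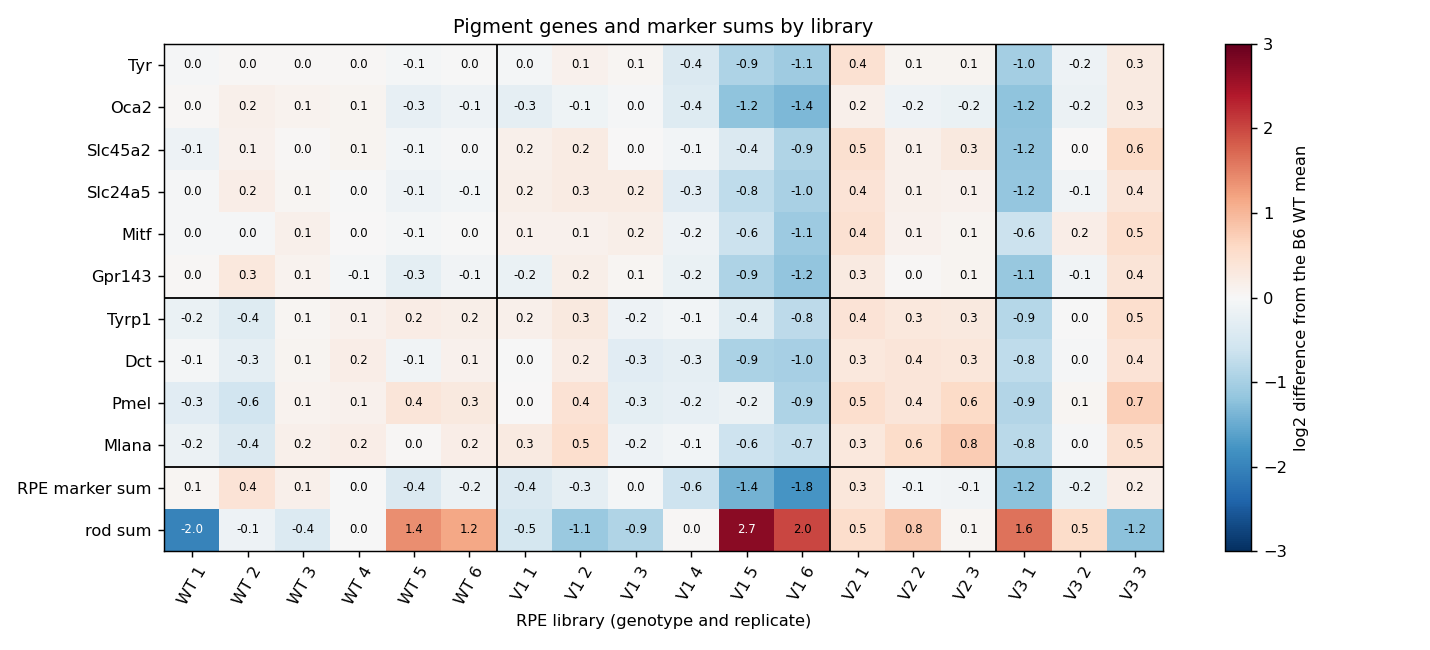
log2 difference of each pigment gene (rows) from its B6 WT mean in the 18 RPE libraries (columns, genotype and replicate), with the summed RPE markers and the summed rod genes below. The columns of *Mertk*-/-V1 replicates 5 and 6 and *Mertk*-/-V3 replicate 1 are blue for the members and the RPE markers and red for the rods, with member medians of -0.70, -0.98 and -0.95.

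Within this common movement the members fell into 2 groups, a split made after the values had been seen. *Tyr*, *Oca2*, *Slc45a2*, *Slc24a5*, *Mitf* and *Gpr143* correlated with each other at 0.872 to 0.974 over the 18 libraries (15 pairs, median 0.928, log2 scale), and *Tyrp1*, *Dct*, *Pmel* and *Mlana* at 0.854 to 0.966 (6 pairs, median 0.926). The 24 pairs between the groups had 0.623 to 0.915 (median 0.822). Without the 3 libraries, over 15, the pairs within the 4 abundant genes kept a median of 0.879, the pairs within the 6 had 0.776 and those between 0.445, from -0.10 to 0.691. All of these coefficients share the same libraries and size factors. The ratio of *Pmel* to *Oca2* normalized counts, 1 gene of each group, ran from 3.60 to 12.1 over the 18 libraries, 3.37-fold, whereas that of *Oca2* to *Gpr143*, both of the group of 6, ran from 3.04 to 4.16, 1.37-fold. The lowest *Pmel* to *Oca2* ratio was that of B6 WT replicate 2 and the highest that of *Mertk*-/-V1 replicate 5. B6 WT replicates 1 to 3 ranged from 3.60 to 5.92 and replicates 4 to 6 from 6.17 to 9.07, without overlap, whereas the sets of *Mertk*-/-V1 (5.01 to 8.89 and 6.57 to 12.1) overlapped.

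Correlations with genes outside the members differed between the ends of these groups and met in the middle. The mean level of the RPE markers went with *Oca2* (Pearson r 0.978 over 18 libraries, 0.897 without the 3), *Gpr143* (0.959 and 0.804), *Tyr* (0.948 and 0.734), *Slc24a5* (0.920 and 0.691), *Mitf* (0.902 and 0.487), *Slc45a2* (0.847 and 0.478), *Dct* (0.839 and 0.300), *Tyrp1* (0.697 and -0.04), *Mlana* (0.670 and -0.03) and *Pmel* (0.585 and -0.01). *Gpnmb*, a glycoprotein related to *Pmel* that is found in melanosomes and in lysosomes of macrophages, went with *Tyrp1* (0.976 and 0.958), *Pmel* (0.969 and 0.954), *Mlana* (0.945 and 0.905) and *Dct* (0.886 and 0.852), and with *Oca2* at 0.652 and -0.06. In the 15 libraries *Slc45a2* (0.606) and *Mitf* (0.506) of the group of 6 were closer to *Gpnmb* than to the RPE markers, so the split was not sharp. *Trpm1*, a cation channel of melanocytes and of ON bipolar cells, went with *Dct* (0.919 and 0.925). The mean level of the melanocyte markers had -0.23 (*Pmel*) to 0.12 (*Slc24a5*) over 18 libraries. Without the 3 it had -0.51 (*Dct*) to 0.04 (*Slc24a5*). *Sox10*, of that list, behaved otherwise: it went with *Oca2* (0.959 and 0.818) and *Gpr143* (0.954 and 0.792), and with *Pmel* at 0.526 and -0.32. These coefficients describe the same 18 libraries and carry no test.

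Genes outside the set that were most like it were ranked by correlation with the mean standardized log2 level of the 10 members over the 18 RPE libraries, among 13083 genes whose mean normalized count reached 100. The nearest 8 were *Tnfrsf19* (r = 0.975), *Clcn5* (0.973), *Msrb3* (0.966), *Dpp7* (0.965), 4932438H23Rik (0.964), *Lhfpl2* (0.963), *Nudt7* (0.962) and *Rragd* (0.962). *Tnfrsf19* encodes a receptor of the TNF family, *Clcn5* an endosomal chloride and proton exchanger, *Msrb3* a methionine sulfoxide reductase, *Dpp7* a lysosomal peptidase and *Rragd* a GTPase that tethers mTORC1 to lysosomes. Their coefficients without the 3 libraries were 0.820 to 0.918.

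Other genes of the melanosome were described as lists. In *Mertk*-/-V1 RPE against B6 WT none of 12 further melanosome genes, 19 subunits of the sorting complexes BLOC and AP-3 with their partners, 11 genes of melanosome transport, 4 genes of the MITF family and 7 regulators of RPE identity passed the test (0.388% of genes by adjusted p), with medians of 0.01, -0.07, -0.09, -0.06 and -0.22. Neither did any of these genes pass in the RPE of the B6-derived knockouts against B6 WT. Between the sets of replicates more passed by adjusted p alone. *Cd63*, which sorts PMEL into the early melanosome, was lower in replicates 4 to 6 (-0.59, limma, adjusted p = 0.00887), as was *Rab27a*, the GTPase that moves melanosomes along actin (-0.61, adjusted p = 0.0161), and *Otx2*, which acts with MITF in the RPE (-0.38, adjusted p = 0.0186). *Crx*, a factor of photoreceptors listed among the regulators, rose with the rod genes (2.04, limma, adjusted p = 0.00770). Of the lists by count, 2 of 7 regulators were higher and 2 lower, 6 of 19 BLOC and AP-3 genes lower and 1 higher, and 5 of 11 transport genes lower and 1 higher. Over all genes 21.8% were lower and 19% higher by the same rule, so the shares of the regulators and of the BLOC and AP-3 genes were near those of any genes.

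*Bloc1s6*, the pallidin subunit of BLOC-1 that is needed to deliver cargo to melanosomes, was the only gene of its list to pass by adjusted p in a comparison of genotypes in RPE. It lies on chromosome 2 (chr2:122738503-122749475), among genes that the study places in the 129P2 stretch. It was at 727 to 910 in B6 WT RPE and 938 to 1215 in *Mertk*-/-V1 RPE, at 789 to 877 in *Mertk*-/-V2 and at 587 to 807 in *Mertk*-/-V3, whose mean (686) lay below that of B6 WT (823). Every *Mertk*-/-V1 library was above every B6 WT library, which held for 0.568% of genes. Its log2 fold change was 0.35 (limma, adjusted p = 0.154) against B6 WT and 0.47 (adjusted p = 0.0366) against the B6-derived knockouts, under the fold threshold in both. The latter adjusted p ranged from 0.0145 to 0.134 when single libraries were left out and was above 0.05 without any one of *Mertk*-/-V1 replicates 1 to 4, *Mertk*-/-V2 replicates 1 to 3 or *Mertk*-/-V3 replicate 2. In BMDMs it was at 837, 878 and 985 in B6 WT and 1360, 1372 and 1404 in *Mertk*-/-V1, a log2 fold change of 0.62 (limma, adjusted p = 0.000151, 7.07% of genes by adjusted p), beside -0.03 and 0.02 in the B6-derived knockouts. In *Mertk*-/-V1 BMDMs *Ap3d1* (0.19, adjusted p = 0.0126) and *Hps3* (0.27, adjusted p = 0.0198), of the same list, passed by adjusted p in limma too, as did *Tpcn2* (0.18), *Rabggta* (0.30) and *Rab38* (1.13) of the other melanosome lists. *Tpcn2* (0.22), *Rabggta* (0.29) and *Slc7a11* (1.30) passed in those of *Mertk*-/-V2, where 4.61% of genes did. The RPE and BMDM tables were normalized apart, and the difference between the tissues was not tested.

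In BMDMs *Tyr*, *Tyrp1*, *Oca2*, *Slc45a2* and *Gpr143* had 0 reads in all 12 libraries. *Dct* had 1 read in 1 library and *Mlana* 1 read in each of 2 libraries, so these 7 genes were at or under the 3 reads that a library with no read allows. *Pmel* was at 8.49 to 23.6 normalized counts, with 7 to 22 reads in each of the 12 libraries, beside the 14357 to 44860 normalized counts of RPE. Its ends overlap *Cdk2* and *Dgka* on the opposite strand, which averaged 1584 and 284 in BMDMs. Whether the counting used strand is not given, so the source of these *Pmel* reads is not known. *Slc24a5* was at 64.1, 55.4 and 60.6 in B6 WT and 85.7, 85.0 and 95.6 in *Mertk*-/-V1, at 58.2, 77.7 and 120 in *Mertk*-/-V2 and at 71.0, 91.7 and 65.1 in *Mertk*-/-V3. All *Mertk*-/-V1 values were above all B6 WT values, as for 15.4% of genes in that comparison, and the other knockouts overlapped both. The *Slc24a5* difference in *Mertk*-/-V1 was 0.56 (0.08 to 1.03, limma, adjusted p = 0.145). The adjusted p became 0.0481 with only these 2 groups in the fit. The 3′ end of *Slc24a5* overlaps *Myef2* on the opposite strand, which was at 663 to 710 in B6 WT and 637 to 692 in *Mertk*-/-V1 BMDMs. *Mitf*, which macrophages and osteoclasts use too, was at 1036 to 1316 in all 12 BMDM libraries and did not pass the test in *Mertk*-/-V1 (0.15, -0.03 to 0.33, limma, adjusted p = 0.291, and 0.0454 without B6 WT replicate 3). The log2 fold change was 0.11 in *Mertk*-/-V2 and 0.15 in *Mertk*-/-V3. None of the 3 members tested there changed, beside 0.425% of genes called in *Mertk*-/-V1. The shares were 0.253% for *Mertk*-/-V2 and 0.156% for *Mertk*-/-V3. *Gpnmb* was at 88236 to 97535 in BMDMs and at 17774 to 46204 in RPE, so that the relative of *Pmel* was the more abundant in the cells without pigment, each table on its own scale.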

How the data were processed

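PolyA RNA of RPE and BMDMs was sequenced as 150 bp paired-end reads. According to the submitters' processing notes STAR, DESeq2 and the GRCm38 (mm10) genome were used; the counter, the gene annotation and the use of strand are not given in the sources used here. The authors deposited, for each tissue, a table whose values (unit: signal, as normalized read density per gene) are gene counts divided by a DESeq2 size factor per library. Dividing each column by its smallest positive value gave whole reads for 100% of the values within 0.01 read, which set the depths and the count tests. Floors cover counting error only, whereas the limma intervals rest on the spread between libraries. Tissues were normalized apart, so no test ran between them. All groups of a tissue entered 1 limma 3.58.1 model (R 4.3.3, empirical Bayes with a trend) on log2 of the value plus 1, for genes with a mean of at least 10, with Benjamini-Hochberg adjustment over all genes tested, and fold changes are on that scale. edgeR 4.0.16 and DESeq2 1.42.0 on the recovered reads were alternatives, along with those named in the closing section. The scripts were tested on simulated data. Labels call the libraries biological replicates without naming the animals, so p-values measure the spread between libraries.

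Genes carry GENCODE release 21 coordinates of GRCm38 (55394 of 55573 identifiers matched) and promoters are those of RefSeq. The 10 members and all gene lists were chosen with earlier results of these data known. Named outside the members are overlapping genes and neighbours of *Slc24a5*, the 8 genes most like the members, and list genes past a threshold, at most 4 per list by smallest p; *Gpnmb*, *Trpm1* and single markers were named after their values were seen. Same-numbered libraries deviated together in RPE for *Mertk*-/-V1 and B6 WT (all 6 correlations of deviations from 0.119 to 0.724), and not in the other groups. Only 2 of these 6 correlated best with their own number, so pairing by number was not established. The replicate number entered as a block in an alternative fit only. No 2 libraries of a group agreed within sampling noise.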

Additional observations from a re-analysis of the deposited data

Results flagged for a closer look

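Among the 20 sets of values checked for a library that stands apart (10 members, RPE of *Mertk*-/-V1 or B6 WT mice), 1 was found: *Mitf* in B6 WT, where replicate 3 read 2683 normalized counts against 2331 to 2453 in the other 5 libraries. Chance gives about 1 such library in 20 sets.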

How the results depend on the processing

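No member passed both thresholds under any alternative run, in any RPE or BMDM comparison. By adjusted p alone, 4 members were called between replicates 4 to 6 and 1 to 3 in place of 0, and 0 in the other comparisons. With the RPE markers as a covariate *Slc24a5* in *Mertk*-/-V1 RPE turned from -0.23 to 0.37. The counts of all genes called moved more: in the order *Mertk*-/-V1, *Mertk*-/-V2, *Mertk*-/-V3 against B6 WT and *Mertk*-/-V1 against the B6-derived knockouts, limma called 28, 11, 12 and 18, DESeq2 64, 21, 28 and 38, and limma without the filter on low values 31, 17, 34 and 25. With the replicate number as a block the counts were 37, 200, 1270 and 558, with no member among them (smallest adjusted p of a member 0.0931, *Oca2* in *Mertk*-/-V3). The 200, 558 and 1270 come from fits with groups whose same-numbered libraries did not deviate together. Without the 3 libraries rich in rod transcripts 267 genes were called in *Mertk*-/-V1 against the B6-derived knockouts. With only the groups compared in the fit, the BMDM counts fell to 12 from 34 in *Mertk*-/-V2 and rose to 35 from 21 in *Mertk*-/-V3, and the RPE count of *Mertk*-/-V3 was 6. Leaving out *Mertk*-/-V1 replicate 6 brought the members' median in *Mertk*-/-V1 against B6 WT to -0.08, and the other single libraries gave -0.33 to -0.18, with all 10 members lower each time. Over all named genes, 2201 alternative values stayed as they were in direction and side of the threshold, 184 moved, 117 lost a call, 25 gained one and 1 reversed. The causes were not tested. Depth did not limit the members in RPE, whose lowest value was 385 normalized counts, but it does in BMDMs, where 7 members had at most 1 read in a library.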
